A study of Ovis aries with 16 samples.

Results

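MIR21, MIR143 and MIR199A are 3 of the 105 microRNAs (miRNAs) in the deposited table, and were chosen by name as miRNAs known from stromal cells and from fibrosis. A miRNA is a short RNA cut from a hairpin precursor that, bound to an Argonaute protein, pairs through its seed with messenger RNAs and lowers their translation and stability. In tissue scarring, miR-21 is a well-known product of injury and of TGF-beta signalling in fibroblasts and macrophages, and acts on mRNAs that include PDCD4 and SMAD7. In mice and humans, miR-143 is made together with miR-145 in smooth muscle cells and fibroblasts, and in mice extra hepatic miR-143 lowers insulin-stimulated AKT activation. In mice and humans, miR-199a is made together with miR-214 in mesenchymal cells, among them hepatic stellate cells, and also occurs in hepatocytes.

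The small RNA libraries came from liver and from muscle of 8 female sheep: 4 ewes with prenatal testosterone treatment (prenatal T; ewes 48, 185, 233 and 255) and 4 control ewes (ewes 98, 131, 132 and 201). Each ewe gave 1 liver and 1 muscle library, so that 16 libraries fall into 4 groups of 4. The dose of testosterone, the window of treatment, the age at sampling and which muscle was taken are not given in the sources used. Both tissues are whole pieces, in which fewer cells of a type and less RNA per cell cannot be told apart.

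Liver libraries held 206304 to 755344 miRNA reads and muscle libraries 113522 to 885316. Of 5 listed hepatocyte markers, 2 were in the table, MIR148A and MIR194, while MIR122, MIR192 and MIR885 were absent. The 2 made up 12.1% ± 2.30 of miRNA reads in prenatal T livers and 11.6% ± 1.39 in control livers (SD, n = 4 each). In muscle they made up 0.270% ± 0.0623 in prenatal T ewes and 0.292% ± 0.0666 in control ewes (SD, n = 4 each). MIR133, a miRNA of striated muscle, was the only 1 of 5 listed skeletal muscle miRNAs in the table. It made up 0.0405% ± 0.00831 in prenatal T livers and 0.0923% ± 0.0908 in control livers. In muscle it made up 50.3% ± 8.85 in prenatal T ewes and 52.5% ± 2.39 in control ewes. The muscle library of ewe 255 stood apart: it held 113522 miRNA reads where the other 7 muscle libraries held 395470 to 885316, and MIR133 took 37.2% of them where it took 50.0% to 56.4% in the others. Its share of the blood and immune miRNAs in the table, MIR150 and MIR16B, was 1.01%, against 0.406% to 0.668% in the other muscles. The other 6 of the 8 listed were absent (MIR451, MIR144, MIR223, MIR142, MIR155 and MIR146A). This share is of a total that includes MIR133, and was not computed without it. Library numbers in the labels fall into 2 separate ranges, called library sets 1 and 2 here. What these ranges stand for is not given in the sources used. Muscle of ewe 255 is the only muscle in set 2, and livers of ewes 48 and 98 are the only livers in set 1, so that library set and tissue nearly coincide.

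All 3 miRNAs were abundant, and each took a larger share of miRNA reads in every liver than in any muscle. Their sum was 11.2% ± 1.89 in prenatal T livers and 10.6% ± 1.90 in control livers, against 2.37% ± 0.376 in prenatal T muscles and 3.05% ± 0.554 in control muscles. MIR143 was the most read of the set, with 5.71% ± 1.18 in prenatal T livers and 5.71% ± 0.890 in control livers, against 1.58% ± 0.291 in prenatal T muscles and 2.12% ± 0.465 in control muscles. By mean share it ranked 6 of 105 in prenatal T livers, 7 in control livers, 12 in prenatal T muscles and 10 in control muscles. MIR199A took 3.43% ± 0.506 in prenatal T livers and 2.94% ± 0.545 in control livers, against 0.662% ± 0.145 in prenatal T muscles and 0.729% ± 0.121 in control muscles. MIR21 took 2.06% ± 0.495 in prenatal T livers and 1.93% ± 0.594 in control livers, against 0.127% ± 0.0364 in prenatal T muscles and 0.195% ± 0.118 in control muscles. Without ewe 255 the prenatal T muscles were at 1.71% ± 0.162 for MIR143, 0.731% ± 0.0474 for MIR199A and 0.111% ± 0.0215 for MIR21 (n = 3). The mean of MIR199A was then not below that of the control muscles. For each of the 3, the order of group means put both liver groups above both muscle groups; neighbours within a tissue overlapped, and the lower liver group lay apart from the higher muscle group. Behind these shares lie 198 to 19595 reads per library for MIR21, 1354 to 54896 for MIR143 and 514 to 31092 for MIR199A. On shares of miRNA reads the median of all tested miRNAs was also higher in liver. The median log2 difference, liver minus muscle, was 1.501 in prenatal T ewes and 1.62 in control ewes. How many of all miRNAs had a larger share in every liver than in any muscle was not counted. With MIR133 left out of the total, control muscles overlapped both liver groups for MIR143, while liver and muscle stayed apart for MIR21 and MIR199A.

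**Figure D1:**
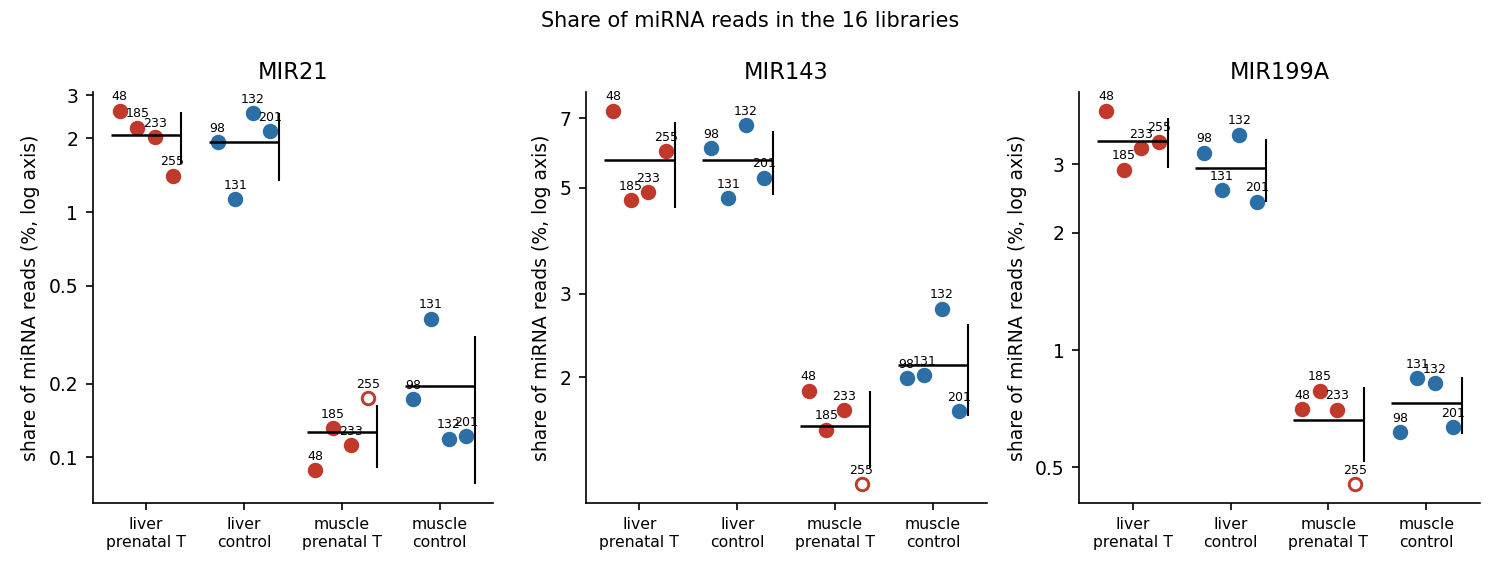
Share of miRNA reads (%, log axis) of MIR21, MIR143 and MIR199A in each of the 16 libraries, labelled by ewe, in prenatal T and control ewes of each tissue (horizontal bar, mean; vertical bar, SD; n = 4). All liver points lie above all muscle points in each panel, and prenatal T and control overlap within each tissue. Muscle of ewe 255 (hollow) is the lowest for MIR143 and MIR199A. The median of all tested miRNAs was also higher in liver on this scale.

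Exposure to testosterone before birth was examined first in liver, on the normalised reads the authors deposited (reads divided by a size factor for the library). MIR21 had 9638, 9375, 6876 and 5007 normalised reads in prenatal T livers (ewes 48, 185, 233 and 255), against 6931, 4486, 9945 and 8493 in control livers (ewes 98, 131, 132 and 201). MIR143 had 27001, 19953, 16614 and 21258 in the prenatal T livers, against 21754, 18952, 26553 and 20903 in the control livers. MIR199A had 15293, 12279, 11190.5 and 12174 in the prenatal T livers, against 11522, 10238, 13979 and 9559.8 in the control livers. In each case the groups overlapped (of 81 miRNAs tested, 1.23% had all prenatal T livers above all controls and 0% below), and the highest and lowest of the 8 livers were both controls for MIR21 (ewes 132 and 131) and both prenatal T for MIR143 (ewes 48 and 233).

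None of the 3 passed the threshold in liver (adjusted p under 0.05, limma on log2(normalised reads + 1), Benjamini-Hochberg over 81 miRNAs). The background was the same: 0% of the 81 miRNAs were called. Before adjustment, 0 had p under 0.05 with limma, 3 with edgeR and 1 with DESeq2, and none was called by edgeR or DESeq2 after it. The log2 fold change, prenatal T over control, was 0.061 for MIR21 (SE 0.26, 95% interval -0.50 to 0.62), -0.067 for MIR143 (SE 0.17, -0.44 to 0.31) and 0.17 for MIR199A (SE 0.17, -0.20 to 0.55), each with a limma adjusted p of 0.959. The median over all miRNAs tested was 0.0052. The sign for MIR21 and MIR143 depended on single livers: without control ewe 131 MIR21 was at -0.16, and without prenatal T ewe 233 MIR143 was at 0.043. Within library set 2 alone, with 3 livers a group, the values were -0.077, -0.19 and 0.097 for MIR21, MIR143 and MIR199A, each with a limma adjusted p of 0.943.

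In muscle the 3 miRNAs had lower means in prenatal T ewes, and none passed the threshold. MIR21 had 384, 529, 498 and 521 normalised reads in prenatal T muscles (ewes 48, 185, 233 and 255), against 757, 1431, 489.8 and 520.3 in control muscles (ewes 98, 131, 132 and 201). The prenatal T muscles lay within a narrow band, with 2 controls inside it and 2 above. MIR143 had 8139, 6241, 7589 and 3561 in the prenatal T muscles, against 8737, 7857, 11457 and 7244 in the control muscles. MIR199A had 3059, 3161, 3127 and 1352 in the prenatal T muscles, against 2703.2, 3295, 3376 and 2702.8 in the control muscles. For MIR143 and MIR199A the lowest value of all 8 muscles was that of ewe 255. Groups overlapped for all 3, with and without that ewe; of the 64 miRNAs tested, 1.56% had all prenatal T muscles above the controls and 1.56% had all below, in both sets of libraries.

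The log2 fold change in muscle was -0.60 for MIR21 (SE 0.28, 95% interval -1.19 to -0.0019) and -0.51 for MIR143 (SE 0.23, -0.99 to -0.032), both with an adjusted p of 0.559 by limma over 64 miRNAs. For MIR199A it was -0.25 (SE 0.23, -0.75 to 0.25; limma adjusted p 0.778), and the median over all 64 was -0.045. The call rate was 0% here too. Before adjustment, 5 miRNAs had p under 0.05 with limma, 3 with edgeR and 3 with DESeq2, and none of these tools called any after it.

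Without muscle of ewe 255, MIR143 moved to -0.26 (SE 0.15, 95% interval -0.58 to 0.072) and MIR199A to 0.053 (SE 0.12, -0.21 to 0.32), while MIR21 was at -0.64 (SE 0.29), each with a limma adjusted p of 0.934. The median over all 64 was then 0.0045, 0% were called, and 2 had p under 0.05 before adjustment (limma). The mean of MIR199A was 3116 ± 52.0 normalised reads in the 3 remaining prenatal T muscles (SD, n = 3), against 3019 ± 367 in the 4 control muscles (SD, n = 4). MIR143 averaged 7323 ± 977 in those 3 muscles, against 8824 ± 1859 in the controls. MIR21 rested on another library: without control muscle of ewe 131, which held 1431 normalised reads, its log2 fold change was -0.27 (limma adjusted p 0.850).

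**Figure D2:**
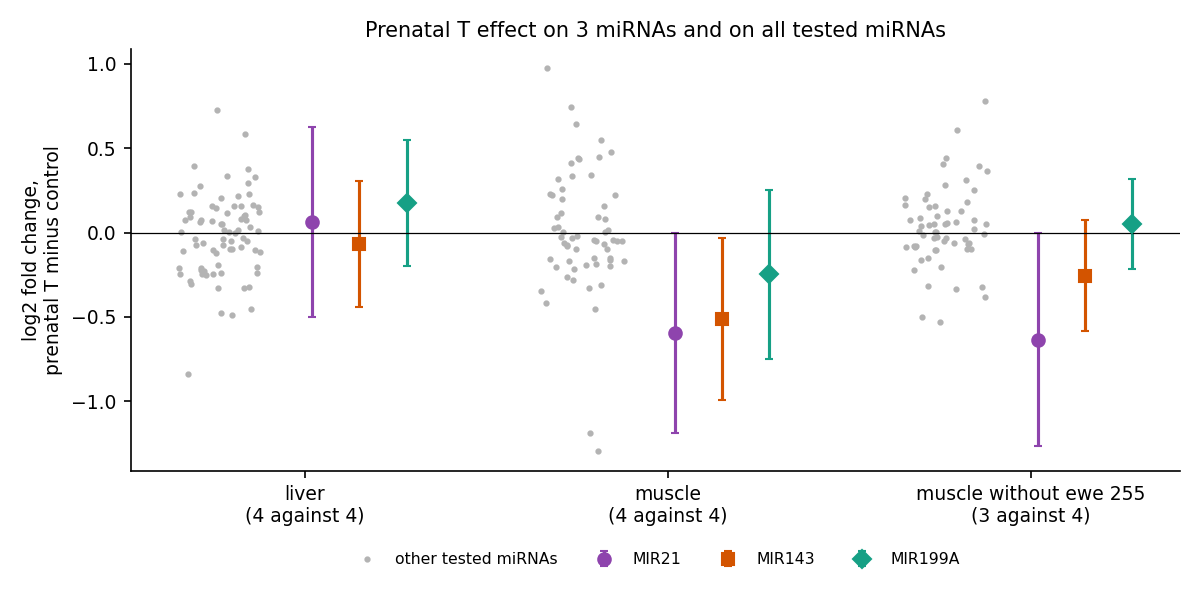
Log2 fold change, prenatal T over control, with its 95% interval, for MIR21, MIR143 and MIR199A in liver, in muscle and in muscle without ewe 255 (limma on log2 of normalised reads + 1). The liver intervals lie across 0, and leaving out muscle of ewe 255 takes MIR143 to -0.26 and MIR199A to 0.053.

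Shares of miRNA reads gave 6 comparisons that do not use the authors' size factors. The difference in share, prenatal T minus control, had an exact permutation p (two-sided, 70 assignments of 8 libraries, smallest possible 0.0286) of 0.714 for MIR21, 1.0 for MIR143 and 0.229 for MIR199A in liver. In muscle the exact p was 0.371 for MIR21, 0.0857 for MIR143 and 0.571 for MIR199A, and none was under 0.05 after adjustment over the 6 (lowest 0.514, exact permutation). Without ewe 255 the muscle values were 0.257, 0.171 and 1.0 in the same order (35 assignments, exact).

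Whether the response differed between tissues was tested as the difference of the log2 fold changes, liver minus muscle, over all 16 libraries. It was 0.66 for MIR21 (SE 0.41), 0.45 for MIR143 (SE 0.30) and 0.42 for MIR199A (SE 0.31), each with a limma adjusted p of 0.752 over 76 miRNAs, of which 0% were called. Before adjustment, 2 miRNAs had p under 0.05 with limma, 3 with edgeR and 2 with DESeq2, and none was called by any of them after it. Without muscle of ewe 255 the difference was 0.19 for MIR143 and 0.12 for MIR199A, and without control muscle of ewe 131 it was 0.33 for MIR21. These fits took no account of the pairing of liver and muscle by ewe. With the ewe as a block, each of the 3 had a limma adjusted p of 0.684. All 3 were thus above 0 in these settings and none passed the threshold.

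The ratio of 2 miRNAs within a library does not depend on how the library was scaled, and is a ratio of reads, not of molecules. In liver, the ratio of MIR143 to MIR199A was lower in every prenatal T ewe than in any control ewe. It was 1.77, 1.62, 1.48 and 1.75 in the prenatal T livers (ewes 48, 185, 233 and 255), against 1.89, 1.85, 1.90 and 2.19 in the control livers (ewes 98, 131, 132 and 201). The means were 1.66 ± 0.130 in prenatal T livers and 1.96 ± 0.155 in control livers (SD, n = 4 each), a log2 difference of -0.24. The exact permutation p was 0.0286, the smallest that 4 against 4 can give, and 0.171 after adjustment over the 6 ratio comparisons, so the difference did not pass. Of all 3240 pairs of tested miRNAs in liver, 1.73% had groups that did not overlap. Since the 2 groups of livers did not overlap, the order within library sets had to be the same and is no separate test. The ratio was 1.77 in ewe 48 against 1.89 in ewe 98 in the first set. In the second set it was 1.48 to 1.75 in prenatal T livers against 1.85 to 2.19 in control livers. Without control liver of ewe 201, the highest, the log2 difference was -0.19 with an exact p of 0.0857.

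In muscle the same ratio was 2.66, 1.97, 2.43 and 2.63 in prenatal T ewes (48, 185, 233 and 255), against 3.23, 2.38, 3.39 and 2.68 in control ewes (98, 131, 132 and 201). The groups overlapped through control ewe 131, and the log2 difference was -0.27 (exact permutation p 0.2), or -0.31 without ewe 255 (exact p 0.2). With each muscle library left out in turn, the log2 difference ran from -0.36 to -0.17, with exact p from 0.0286 to 0.4. The value of -0.36, with an exact p of 0.0286, the smallest possible there, came without control ewe 131. Leaving out that ewe removes the overlap itself, so this p is no separate support. In this tissue 2.2% of pairs had groups that did not overlap, and 2.83% without ewe 255.

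With all libraries, the mean ratios with MIR21 differed between treatments by less than the SD of either group. MIR21 to MIR143 was 0.369 ± 0.100 in prenatal T livers and 0.334 ± 0.0743 in control livers (exact permutation p 0.657, n = 4 each), against 0.0860 ± 0.0430 in prenatal T muscles and 0.0958 ± 0.0603 in control muscles (exact p 0.857). Without ewe 255 the prenatal T muscles were at 0.0659 ± 0.0187 (n = 3), a log2 difference of -0.38, against -0.083 with it (exact p 0.571). MIR21 to MIR199A was 0.605 ± 0.145 in prenatal T livers and 0.660 ± 0.189 in control livers (exact p 0.714), against 0.209 ± 0.119 in prenatal T muscles and 0.263 ± 0.127 in control muscles (exact p 0.486). Without ewe 255 the prenatal T muscles were at 0.151 ± 0.0221 (n = 3, exact permutation p 0.2). The log2 difference was then -0.69, against -0.35 with that ewe, and the gap in means exceeded the SD of the prenatal T muscles.

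**Figure D3:**
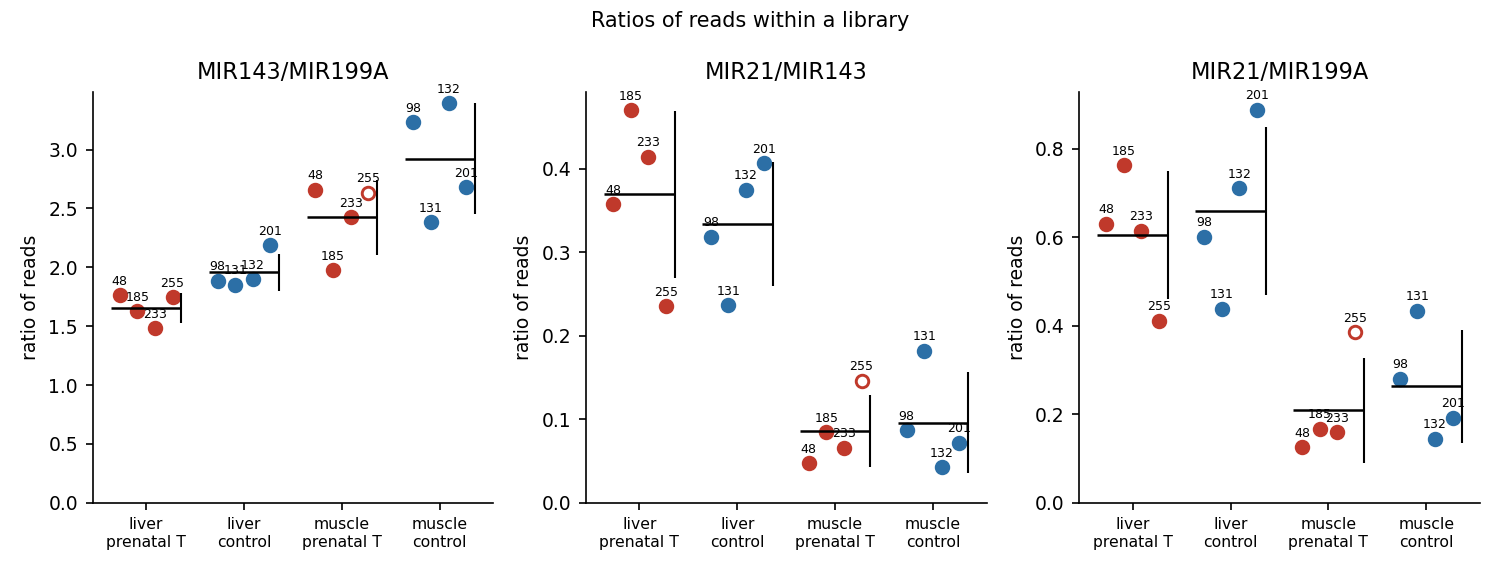
Ratio of reads between the 3 miRNAs within each library, by group and ewe (horizontal bar, mean; vertical bar, SD; n = 4; muscle of ewe 255 hollow). The 4 prenatal T livers lie between 1.48 and 1.77 for MIR143 to MIR199A, below the control livers at 1.85 to 2.19, and the other comparisons of prenatal T with control overlap.

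Liver and muscle were then compared on reads scaled over both tissues by median-of-ratios factors, since the authors' scaling was made within each tissue. MIR21 was the miRNA of the 3 with the largest difference in both treatments. It averaged 5244 ± 1451 scaled reads in livers and 769 ± 112.4 in muscles of prenatal T ewes (log2 difference, liver minus muscle, 2.73, SE 0.23, limma adjusted p 9.3e-08). In control ewes it averaged 4482 ± 1416 in livers and 1255 ± 686 in muscles (1.92, SE 0.34, limma adjusted p 2.6e-04). Calls were common in both comparisons: in prenatal T ewes 62.7% of 75 miRNAs were called, 36% as higher in liver, and in control ewes 76.3% of 76, 42.1% as higher in liver.

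MIR199A was also higher in liver, by less. It averaged 8676 ± 1334 scaled reads in livers and 4287 ± 1492 in muscles of prenatal T ewes (log2 1.10, SE 0.26, limma adjusted p 0.00184), and 6771 ± 917 in livers and 4752 ± 678 in muscles of control ewes (0.51, SE 0.16, limma adjusted p 0.0121). Liver and muscle values of MIR21 and of MIR199A did not overlap in either treatment, as for 34.7% of all miRNAs with higher liver values in prenatal T ewes and 40.8% in control ewes. Without ewe 255 MIR199A was at 0.68 in prenatal T ewes (limma adjusted p 0.00333). In control ewes its call was lost without ewe 132 (adjusted p 0.0545 by limma) and without ewe 201 (log2 0.39, limma adjusted p 0.0862).

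MIR143 gave no call in either treatment on this scale. It averaged 14457 ± 3165 scaled reads in livers and 10197 ± 3333 in muscles of prenatal T ewes (log2 0.55, SE 0.24, limma adjusted p 0.0595), and 13209 ± 1679 in livers and 13911 ± 3289 in muscles of control ewes (-0.055, SE 0.18, 95% interval -0.44 to 0.33, limma adjusted p 0.771). With the ewe as a block in the limma model, the prenatal T value was 0.55 with an adjusted p of 0.0417, under the threshold. Without ewe 233 it was 0.72 (limma adjusted p 0.0255), and without ewe 255 it was 0.15 (limma adjusted p 0.498), with 62.2% of 74 miRNAs called, 32.4% as higher in liver and 29.7% as lower.

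How far MIR143 differed between the tissues depended on the scale; the part in this of MIR133, with its mean of 50.3% of miRNA reads in prenatal T muscles and 52.5% in control muscles, can be read from totals with and without it. As a share of miRNA reads the log2 difference of MIR143 was 1.85 in prenatal T ewes and 1.44 in control ewes, with MIR133 left out of the total 0.83 and 0.37, and per read of all 4 RNA classes 2.63 and 2.14. On each of these 3 scales it passed the threshold in both treatments (limma adjusted p at most 0.0482 in control ewes). The median miRNA moved with the scale, at 0.20 in prenatal T ewes and 0.13 in control ewes with median-of-ratios factors and at 1.501 and 1.62 on shares of miRNA reads. Relative to that median, MIR21 was at 2.54 in prenatal T ewes and 1.78 in control ewes, MIR199A at 0.90 and 0.38, and MIR143 at 0.35 and -0.19. With MIR133 left out of the total, the control muscles of MIR143 overlapped both liver groups, and the prenatal T muscles lay below both. The shares were then 5.71% ± 1.18 in prenatal T livers and 5.72% ± 0.891 in control livers, against 3.31% ± 0.995 in prenatal T muscles and 4.45% ± 0.788 in control muscles.

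**Figure D4:**
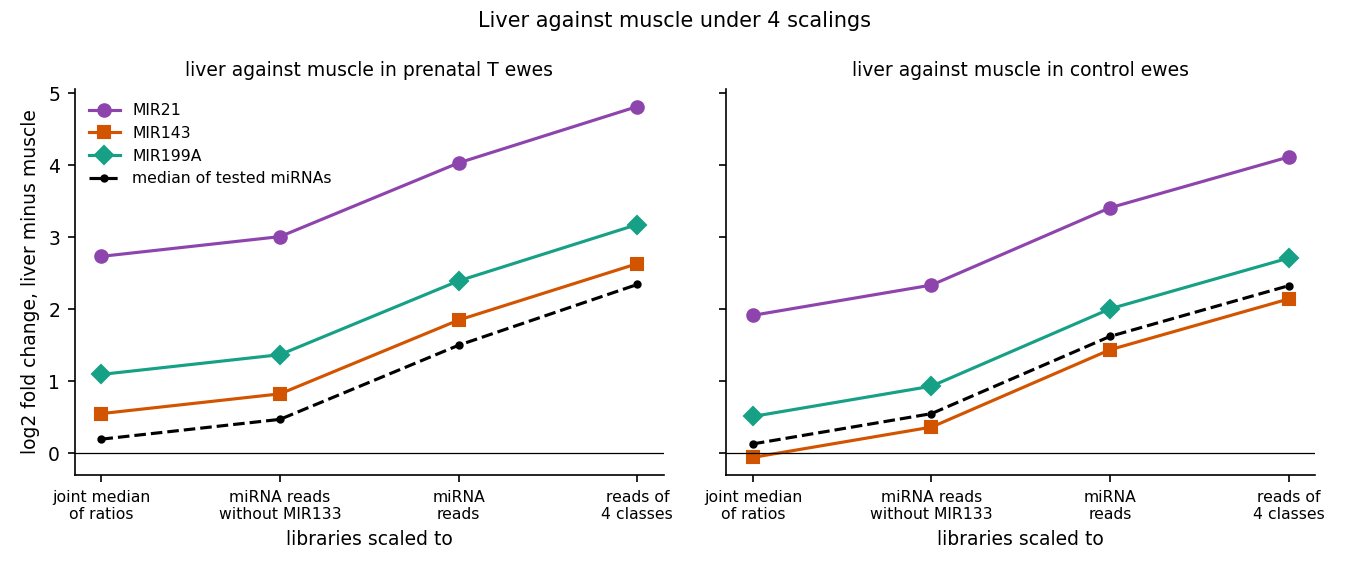
Log2 difference, liver minus muscle, of MIR21, MIR143, MIR199A and of the median of all tested miRNAs under 4 scalings, in prenatal T ewes and control ewes. MIR21 lies above the median miRNA under every scaling shown, and MIR143 in control ewes lies slightly below it.

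Ratios within a library were free of this dependence. The ratio of MIR21 to MIR143 was higher in liver than in muscle of the same ewe in 8 of 8 ewes, with medians of 0.366 in liver and 0.0783 in muscle and a mean log2 difference of 2.08 ± 1.02 (SD, n = 8). MIR21 to MIR199A was higher in liver in 8 of 8 ewes, by 1.52 ± 0.988 on the log2 scale, with the smallest difference, 0.013, in control ewe 131. MIR143 to MIR199A was higher in liver in 0 of 8 ewes, with medians of 1.81 in liver and 2.65 in muscle and a log2 difference of -0.56 ± 0.219. Each of the 3 had an exact sign-flip permutation p of 0.00781, the smallest that 8 ewes allow, and the same value adjusted over the 3. Any 2 of these log2 ratios give the third, so the 3 are not separate tests. How many of all miRNA pairs differ in every ewe was not counted. Tissue calls were common, at 62.7% of miRNAs in prenatal T ewes and 76.3% in control ewes. Without ewe 255 the log2 differences were 2.28, 1.73 and -0.55 in the same order (7 ewes, exact permutation p 0.0156, the smallest possible).

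Liver and muscle fell in the same library set in ewes 48, 98 and 255. On the jointly scaled reads, MIR21 was higher in liver by 3.43 on the log2 scale in prenatal T ewe 48, by 2.11 in prenatal T ewe 255 and by 1.73 in control ewe 98. MIR199A was higher by 1.10, 2.02 and 0.63 in the same 3 ewes, and MIR143 differed by 0.51, 1.42 and -0.15. Tissue and library set cannot be told apart in the other 5 ewes.

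Across the 8 livers, all 3 pairs had correlations above 0, and none passed after adjustment. Pearson's r of log2(normalised reads + 1) was 0.737 for MIR143 with MIR199A (exact permutation p 0.0336, adjusted over 6 relations 0.114), and Spearman's coefficient was 0.690 (exact p 0.0694, adjusted 0.192). Without the 2 livers farthest from the median of MIR143, r was 0.703, and in the 6 livers of library set 2 it was 0.585. For MIR21, r was 0.539 with MIR143 (exact p 0.170) and 0.503 with MIR199A (exact p 0.208), both 0.312 after adjustment, and Spearman's coefficient was 0.643 (exact p 0.0962) and 0.667 (exact p 0.0831), both 0.192 after adjustment. Without the 2 farthest livers these r were 0.553 and 0.748, and in library set 2 they were 0.439 and 0.372. In muscle, MIR143 and MIR199A had an r of 0.861 (exact permutation p 0.0378, adjusted 0.114) and a Spearman's coefficient of 0.5 (exact p 0.216, adjusted 0.324). That relation rested on ewe 255: without it, which leaves the 7 muscles of library set 1, r was 0.263, and without ewes 132 and 255 it was -0.318. MIR21 in muscle had an r of 0.085 with MIR143 (exact permutation p 0.793, adjusted 0.793; Spearman's coefficient -0.238, exact p 0.582) and of 0.149 with MIR199A (exact permutation p 0.669, adjusted 0.793; Spearman's coefficient -0.024, exact p 0.977).

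Between the tissues of a ewe, the correlation of MIR21 was below 0 and did not pass after adjustment. Control ewe 131 had the lowest MIR21 of all livers and the highest of all muscles. Over the 8 ewes Pearson's r between liver and muscle was -0.713 (exact permutation p 0.0369, adjusted over 3 relations 0.111) and Spearman's coefficient was -0.667 (exact p 0.0831, adjusted 0.249). Without the 2 ewes farthest from the median in liver, 131 and 255, r was -0.630, and without ewe 255 alone it was -0.906. For MIR143 r was 0.320 (exact p 0.447, adjusted 0.671) and for MIR199A 0.053 (exact p 0.872, adjusted 0.872); without ewe 255 these r were 0.598 and 0.400. Spearman's coefficient was 0.5 for MIR143 (exact p 0.216, adjusted 0.324) and 0.238 for MIR199A (exact p 0.582, adjusted 0.582). Library sets of liver and muscle combine into groups of at most 5 ewes, under the minimum of 6 set here for a correlation, so no value within them was computed.

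**Figure D5:**
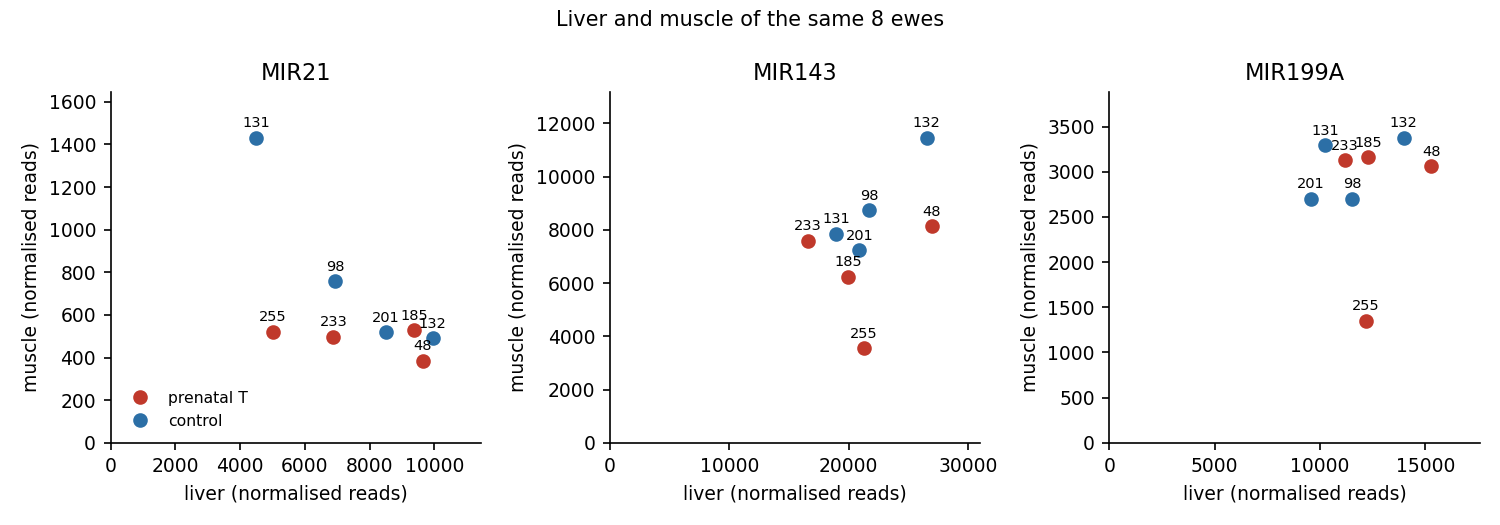
Liver against muscle normalised reads of MIR21, MIR143 and MIR199A for each of the 8 ewes, labelled by ewe (prenatal T and control). For MIR21, control ewe 131 combines the lowest liver value, 4486, with the highest muscle value, 1431.

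The other miRNAs whose levels followed each of the 3 most closely over 8 libraries are given as a description. In liver, of 80 others, MIR21 was followed by MIR10A (r 0.812), MIR10B (0.556) and MIR143 (0.539), MIR143 by MIR10A (0.763), MIR199A (0.737) and MIR218A (0.654), and MIR199A by MIR143 (0.737), MIR381 (0.735) and MIR3959 (0.627). In muscle, of 63 others, MIR21 was followed by MIRLET7I (0.738), MIR221 (0.627) and MIR194 (0.596). MIR143 was followed there by MIR107 (0.916), MIR374B (0.910) and MIR152 (0.884), and MIR199A by MIR152 (0.969), MIR29A (0.954) and MIR17 (0.946). Without ewe 255 the muscle values were 0.632, 0.600 and 0.439 for MIR143 and 0.654, 0.236 and 0.395 for MIR199A, all lower than with it, and 0.814, 0.692 and 0.615 for MIR21, all higher. Their places among the 63 were then 7, 10 and 14 for MIR143, 1, 23 and 14 for MIR199A, and 1, 2 and 6 for MIR21. Most of those named for MIR143 and MIR199A in muscle were thus no longer the closest without that library. All points of a tissue share the libraries' size factors.

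A list of 14 stromal and fibrosis miRNAs, the 3 included, had 8 in the table as 9 rows. In liver 5 of the 9 rows had log2 fold changes above 0 and 4 below, with a median of 0.011, against 42 above and 39 below over all 81 miRNAs and a median of 0.0052. In muscle 2 were above 0 and 7 below, with a median of -0.31, against 27 above and 37 below over all 64 and a median of -0.045. The 2 above 0 were MIR181A-1 and MIR181A-2, whose reads were nearly the same in every library (ratio 0.966 to 1.002), and 3 of the 7 below were MIR21, MIR143 and MIR199A. Without ewe 255 there were 3 above and 6 below, with a median of -0.21, against 34 above and 30 below over all and a median of 0.0045. None of the 9 was called in either tissue. Their summed share was 14.1% ± 2.04 in prenatal T livers and 13.8% ± 2.28 in control livers, against 5.26% ± 0.403 in prenatal T muscles and 5.83% ± 0.512 in control muscles. Between tissues, 3 of the 9 were called higher in liver and 3 lower in prenatal T ewes. In control ewes 3 were called higher and 4 lower. Over all miRNAs 36% were called higher and 26.7% lower in prenatal T ewes, and 42.1% and 34.2% in control ewes. MIR152, the other one higher in liver beside MIR21 and MIR199A, differed by 2.99 in prenatal T ewes and 2.64 in control ewes on the log2 scale. MIR10B, which lies in a HOX cluster, differed by -4.56 and -5.30.

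Of 11 anti-fibrotic miRNAs, 10 were in the table as 11 rows, among them MIRLET7A, MIR30A and MIR133. In liver 4 rows had fold changes above 0 and 7 below (median log2 -0.074), and in muscle 1 was above 0 and 7 below of 8 tested (median -0.13), or 6 above and 2 below without ewe 255 (median 0.035). None was called. The endothelial list had 3 of 5 members in the table, MIR10A, MIR10B and MIR221, all also on the stromal list, while MIR126 and MIR222 were absent. The 3 had fold changes above 0 in liver (median 0.16) and below 0 in muscle (median -0.42, and -0.32 without ewe 255), with none called. Over all miRNAs tested, 42 were above 0 and 39 below in liver, and 27 and 37 in muscle. Without ewe 255 the muscle counts were 34 and 30.

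In the sheep annotation (RefSeq, assembly ARS-UI_Ramb_v3.0; the build behind the deposited values is not given in the sources used here), MIR21 lies within the span of VMP1, a gene of autophagy. MIR199A lies within DNM3, which codes for a dynamin. MIR143 lies within the long non-coding RNA LOC114114896, between IL17B and CSNK1A1. LOC114114896 was the only lncRNA host in the tables, with 11 reads over 16 libraries, in 9 of them: 3 in prenatal T livers, 2 in control livers, 1 in prenatal T muscles and 5 in control muscles. MIR143 itself had 1354 to 54896 reads per library, and the host's counts are too few for a comparison. Each of the 3 miRNAs has a single row that joins both arms of its hairpin, and how reads of identical mature copies elsewhere in the genome were counted for MIR199A is not given in the sources used here. For another family in the same table, MIR29B-1 and MIR29B-2 held equal reads in 16 of 16 libraries.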

How the data were processed

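Values were taken from tables of 4 small RNA classes. The authors deposited a signal in which each library's reads had been divided by its own size factor, set within each class and tissue; this was worked out from the values. Tools named in the submitters' processing notes, without roles, are featureCounts 1.6.1, STAR 2.6.0c and cutadapt 3.2. Whole reads were recovered from the steps between values (100% of 1432 miRNA values above 0 were whole within 0.001 reads). The miRNA table holds few low values, so its steps had no separate check like that of the lncRNA and snoRNA tables; read counts, tissue comparisons, edgeR and DESeq2 rest on them.

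Within a tissue, limma 3.58.1 (R 4.3.3, variance trend) was run on log2(value + 1) of miRNAs with a mean of at least 5, with Benjamini-Hochberg adjustment over all tested, at 0.05. Tissues were compared on recovered reads over joint median-of-ratios factors, with no term for the ewe in the main fits. Alternatives were edgeR 4.0.16 and DESeq2 1.42.0 on recovered reads, other scalings and pseudocounts, no filter, a library-set term, the replicate block and each library left out. Ratios, shares and correlations had exact permutation tests (scipy 1.17.1).

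Liver and muscle were paired by ewe number, from the labels; deviations from group means correlated between the tissues of a ewe at -0.174 to 0.441 over 64 miRNAs. Replicates differed beyond sampling noise (chi-square over degrees of freedom 24.2 to 292). Sequences were not used here. The miRNAs and lists were chosen with earlier results of these data known. Named miRNAs are the 3, the 3 others most correlated with each in each tissue, overlapping or neighbouring lncRNAs, and the 3 of highest mean in each list; MIR152 and MIR10B in the tissue comparison were named after their values were seen.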

Additional observations from a re-analysis of the deposited data

Results flagged for a closer look

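In 24 checks of groups of 4 libraries, 3 had a library far from the other 3 (Dixon's gap over range, above its 95% critical value), where chance gives about 1 in 20 for a single check. The checks are not independent, since the ratios use the same 3 miRNAs in the same libraries. The flags for MIR199A and for MIR21 to MIR199A in prenatal T muscles share the MIR199A value of ewe 255. MIR199A in prenatal T muscles was lowest in ewe 255, at 1352 normalised reads against 3059 to 3161 in the other 3. The ratio of MIR21 to MIR199A in prenatal T muscles was highest in the same library, at 0.385 against 0.126 to 0.167. The ratio of MIR143 to MIR199A in control livers was highest in ewe 201, at 2.19 against 1.85 to 1.90. The part of read depth or of MIR133 and blood miRNA shares in the values of muscle of ewe 255 was not tested.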

How the results depend on the processing

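Of 482 alternatives over 32 results, 443 kept direction and side of the threshold; the cause of the other changes was not tested. In prenatal T against control, every count of called miRNAs stayed at 0 in liver, in muscle and in the difference between tissues under all alternatives run, including scaling to miRNA reads without MIR133, which was chosen after seeing the data. In liver, MIR143 was at 0.016 (share difference 0.0908 percentage points) on reads of the 4 classes, and MIR21 at -0.077 in library set 2 alone. In muscle, MIR199A was at 0.053 with library set as a covariate, which leaves ewe 255 no weight.

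In control ewes, MIR143 liver minus muscle was 1.44 on miRNA reads, 2.14 on the 4 classes, 0.37 without MIR133 and 0.18 by edgeR; the first 3 passed the threshold (limma adjusted p 5.7e-06, 1.0e-07 and 0.0482). In prenatal T ewes it passed at 1.85, 2.63 and 0.83 on those scalings, at 0.55 with pseudocount 5 (limma adjusted p 0.0438) and at 0.55 with the replicate block, which changed no other call on the 3 miRNAs; 73 miRNAs were called on the 4 classes against 47.

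With single libraries or ewes left out, log2 fold changes in liver ran from -0.16 to 0.25 for MIR21 and -0.19 to 0.043 for MIR143. For MIR199A in liver they ran from 0.083 to 0.28. In muscle they ran from -0.78 to -0.27 for MIR21, -0.65 to -0.26 for MIR143 and -0.36 to 0.053 for MIR199A. Liver minus muscle ran from 0.39 to 0.61 for MIR199A in control ewes and from 0.15 to 0.72 for MIR143 in prenatal T ewes. Log2 ratio differences in liver ran from -0.028 to 0.33 for MIR21 to MIR143 and -0.29 to 0.060 for MIR21 to MIR199A. For MIR143 to MIR199A in liver they ran from -0.27 to -0.19. In muscle they ran from -0.40 to 0.29 for MIR21 to MIR143 and -0.69 to -0.066 for MIR21 to MIR199A. For MIR143 to MIR199A in muscle they ran from -0.36 to -0.17. Share differences in liver ran from -0.141 to 0.345 points for MIR21, -0.518 to 0.355 for MIR143 and 0.268 to 0.706 for MIR199A. In muscle they ran from -0.094 to -0.011 for MIR21, -0.684 to -0.322 for MIR143 and -0.109 to 0.00185 for MIR199A. With 4 ewes a group, the intervals leave room for changes of the sizes given beside each value, and depth is lowest for MIR21 in muscle (from 198 reads).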
